A study of Mus musculus with 6 samples.

Results

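The nuclear-encoded genes of the mitochondrial respiratory chain were compared between livers of mice given low-dose tunicamycin (3 libraries) and livers of control mice (3 libraries). The members were chosen by gene name alone: symbols starting with Nduf (complex I), Uqcr (complex III), Cox4 to Cox8 (complex IV) or Atp5 (complex V), and Sdha to Sdhd (complex II). This gave 93 of the 22564 genes in the deposited table: 45 in complex I, 4 in complex II, 8 in complex III, 18 in complex IV and 18 in complex V. The name rule also took in genes that are not subunits, namely 7 Ndufaf assembly factors, Atp5s, Atp5sl, the pseudogene Atp5l-ps1 and the supercomplex factor Cox7a2l.

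All mice were male C57BL/6 aged 10 weeks. Tunicamycin, which blocks N-linked protein glycosylation and so stresses the endoplasmic reticulum, was injected into the peritoneum daily at 0.2 mg/kg for 14 days. Control mice are labelled only as such, and no vehicle is named for them. RNA sequencing of ribosome-depleted total liver RNA gave 1 library per sample, and the labels do not say that each came from a different mouse, so the spread described here may be partly technical.

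The respiratory chain passes electrons from NADH through complex I, or from succinate through complex II, to complex III, cytochrome c and complex IV, where oxygen is reduced. Proton pumping by complexes I, III and IV drives ATP synthesis by complex V. The mitochondrial genome encodes a few core subunits, and the nuclear genome encodes the remainder, including every subunit of complex II. Hepatocytes, the main cells of liver, are rich in mitochondria.

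Depth was low. The protein-coding genes held 611041, 553793 and 595501 whole reads in tunicamycin libraries 1, 2 and 3, and 541022, 577234 and 661145 in control libraries 1, 2 and 3. Counting error alone, with every read independent, would put the upper limit of a gene at 0 reads at 3 reads. This is a share of 0.000454% to 0.000555%, depending on the library. That limit does not bound a value that is 0 because its estimate failed. The most frequent read number among detected genes (on a log scale) was far higher. It was 42.1, 66.7 and 74.8 in tunicamycin libraries 1, 2 and 3, and 149, 47.2 and 53.0 in control libraries 1, 2 and 3. Whether reads were independent counts was not tested. Control library 1 stood apart, with 3046 genes above 0, against 4244 to 5482 in the other libraries. Its most frequent read number, 149, was the highest, though its 541022 reads were near the 553793 of tunicamycin library 2. The cause was not tested. Liver identity was only partly visible: of 12 hepatocyte markers, 7 had no value above 0 anywhere, including Apoa1, Cps1, Cyp2e1 and Ttr. Albumin (Alb) was present in each library, at 133, 96.3 and 127 FPKM (fragments scaled to transcript length and library size) in tunicamycin libraries and 231, 300 and 213 FPKM in control libraries. Of 8 cholangiocyte and epithelial markers, 4 were above 0 in all 6 libraries. Testis, endothelial and red blood cell marker lists were at 0 throughout, and 14 of 15 muscle, 7 of 8 brown adipose, 6 of 9 macrophage and 6 of 8 stellate cell markers were at 0 in all 6. In bulk tissue, fewer cells of a type and less RNA per cell cannot be told apart.

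Detection of the respiratory chain genes was patchy. Of the 93 members, 6 (6.45%) were above 0 in all 6 libraries, 20 (21.5%) were listed at 0 in all 6, and 67 were above 0 in some libraries only. Over all genes of the table, 1124 (4.98%) were above 0 in all 6 libraries and 13826 (61.3%) at 0 in all 6. Members above 0 numbered 49, 42 and 40 in tunicamycin libraries 1, 2 and 3, and 25, 49 and 42 in control libraries 1, 2 and 3. The low number in control library 1 went with the low number of all genes there. Few members had low read numbers: 3 or 4 per library held 1 to 5 reads, while the median of members with reads was 41.5 to 63.0 in tunicamycin libraries and 60 to 125 in control libraries. An exact 0 in these values can be a failed estimate, so that members are described as listed at 0 and not as unexpressed.

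The 20 undetected members included both tissue-restricted isoforms and subunits found in every tissue. Of the 7 tissue-restricted isoforms of complex IV, 6 were listed at 0 in every library: Cox4i2, best known from lung, Cox6a2 and Cox8b of heart and skeletal muscle, and Cox6b2, Cox7b2 and Cox8c of testis. The exception was Cox7a1, the heart and muscle form of subunit 7a, with 73.5 FPKM (30 reads) in tunicamycin library 1 and 0 in the other 5 libraries. The other 14 muscle markers listed with it were at 0 in all libraries. All 10 widely expressed isoforms of complex IV were above 0 in at least 1 library. Ndufa4l2, a paralogue of Ndufa4, was also at 0 throughout. The subunits found in every tissue that were at 0 throughout numbered 8, namely Sdhb, the iron-sulfur subunit of complex II, Uqcrb of complex III, Atp5e (the epsilon subunit of complex V), and Ndufa2, Ndufa3, Ndufb2, Ndufc1 and Ndufs4 of complex I. Of the 7 Ndufaf genes, 3 (Ndufaf3, Ndufaf4 and Ndufaf5) were at 0 in all libraries. Atp5s and Atp5l-ps1 completed the 20.

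**Figure D1:**
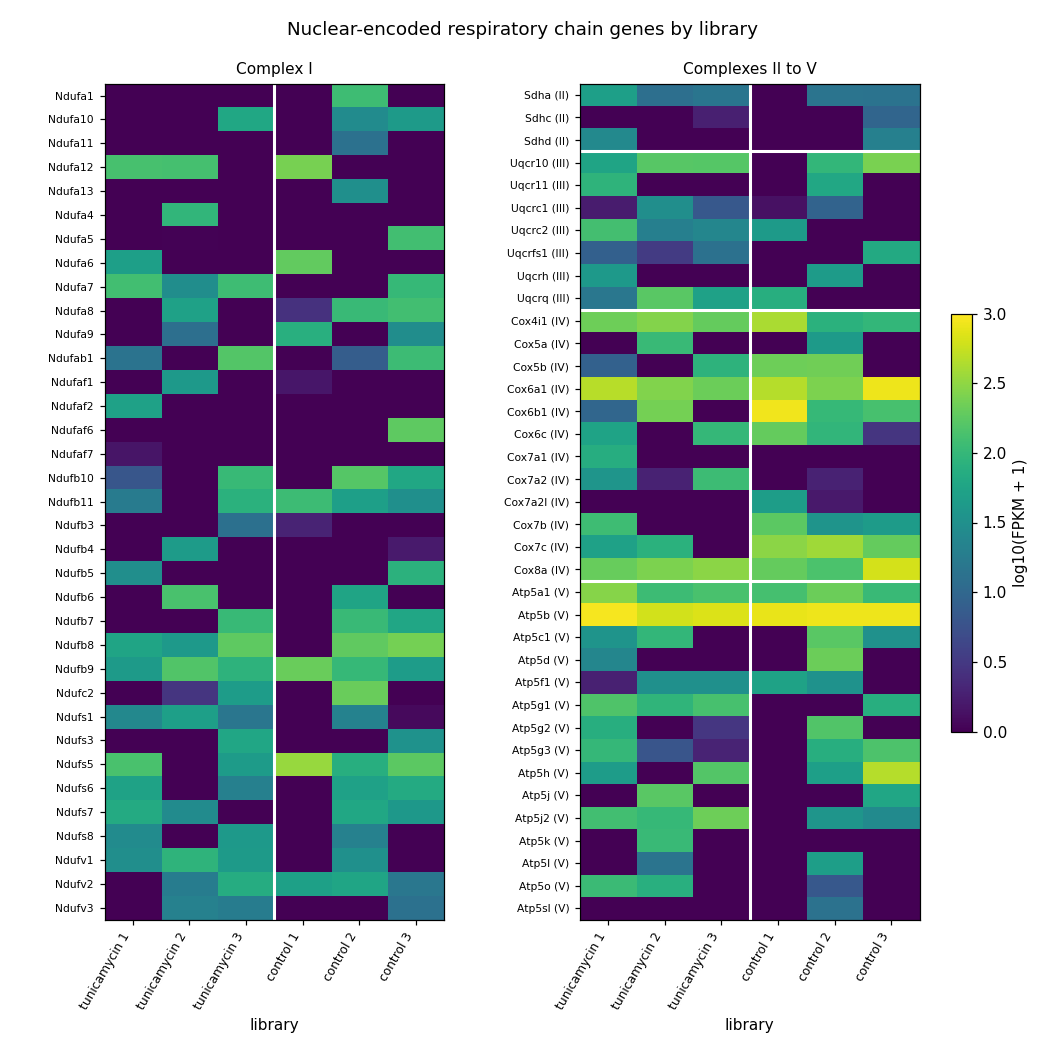
Level of members above 0 in at least 1 library (1 is not drawn), as log10(FPKM + 1) by colour, with genes in rows and the 6 libraries in columns (tunicamycin left, control right). Only 6 genes are coloured in every column, and control library 1 has the most empty cells, with 25 members above 0.

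Promoters of the family were set beside these values, because many respiratory chain genes are known targets of the nuclear respiratory factor NRF1, of GABPA and of YY1. RefSeq (GRCm38.p6) gave windows from 250 bases before to 50 bases after the start for 76 of the 93 members (82 windows). The core letters of the NRF1 motif, searched like the others on both strands, were in 20 of 82 member windows (24.4%), against 4.60% of the 32851 windows of all genes. YY1 letters (AAGATGGCG) were in 9 of 82 member windows, against 1.40% of all windows. The shares were, for GABPA (CCGGAAGT) 6.10% and 3.89%, and for the estrogen-related receptor ERRA (TNAAGGTCA) 3.66% and 1.28%. NRF1 letters were in 1 of 3 windows of members above 0 in all 6 libraries, in 17 of 66 windows of members above 0 in 1 to 5 libraries and in 2 of 13 windows of members at 0 in all 6. By complex, NRF1 letters were in 10 of 41 windows of complex I, 2 of 3 of complex II and 1 of 5 of complex III. They were in 1 of 13 windows of complex IV and 6 of 20 of complex V. A match of letters is a description and not a binding site. The stretches below, 1 for each complex, were picked because they hold a match, which is in capitals (NRF1 letters in all except Uqcr11, which has GABPA letters). Each is 120 bases long and runs 5′ to 3′ along the gene's strand. The Sdha stretch holds 3 NRF1 matches.
Ndufs5 chr4:123718187-123718306, minus strand: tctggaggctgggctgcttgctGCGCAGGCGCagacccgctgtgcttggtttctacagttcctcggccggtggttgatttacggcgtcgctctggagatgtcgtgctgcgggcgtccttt
Sdha chr13:74350241-74350360, minus strand: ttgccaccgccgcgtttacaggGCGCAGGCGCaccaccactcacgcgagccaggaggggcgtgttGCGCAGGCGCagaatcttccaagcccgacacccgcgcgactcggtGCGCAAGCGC
Uqcr11 chr10:80406822-80406941, minus strand: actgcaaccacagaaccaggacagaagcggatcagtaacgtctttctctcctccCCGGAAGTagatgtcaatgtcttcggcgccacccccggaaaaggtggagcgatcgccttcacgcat
Cox6a1 chr5:115348959-115349078, minus strand: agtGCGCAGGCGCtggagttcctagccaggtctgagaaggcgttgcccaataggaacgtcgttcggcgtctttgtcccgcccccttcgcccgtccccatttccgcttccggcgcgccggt
Atp5g2 chr15:102671048-102671167, minus strand: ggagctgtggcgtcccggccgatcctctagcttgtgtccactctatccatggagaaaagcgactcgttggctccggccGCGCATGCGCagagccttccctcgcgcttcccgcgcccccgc

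The main question was whether tunicamycin changed the level of any of these genes. No member passed the threshold. limma on log2(FPKM + 1) tested the 72 members with a mean FPKM of at least 1, and 0 of them had a Benjamini-Hochberg adjusted p under 0.05, against 5 of all 7696 genes tested (0.0650%). The other 21 members were too low to test. edgeR on whole reads called 0 of the 72 (all genes 3, 0.0390%). DESeq2 also called 0 (all genes 44 of 3494, 1.26%), but it gave no adjusted p for 41 of the 72 members. At an unadjusted p under 0.05, limma counted 9 of 72 members (12.5%, all genes 3.09%) and edgeR 0 (all genes 1.49%). DESeq2 gave a p for 61 of the 72 members, of which 1 was under 0.05 (Cox7a2, p 0.0120), against 6.83% of the 6531 genes to which it gave one. It gave none for 11 members, among them Cox6b1, Cox7b, Ndufv1 and Uqcrc2. limma's errors here came wholly from the trend of variance with abundance over all genes, so that a gene's own spread between libraries had no weight in its p.

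Directions were evenly divided. Log2 fold changes (tunicamycin minus control) were positive in 36 and negative in 36 of the 72 members tested, with a median of 0.01, against 0.10 over all genes tested. The groups did not overlap for 4 of 72 members (5.56%), near the 5.74% of all genes tested. In whole reads scaled to library size (CPM) the number was also 4 of 72, with 5.57% over all genes. Those 4 were Atp5g1, Atp5j2 and Cox7a2, higher in tunicamycin libraries (all genes 3.03%), and Cox7c, lower in them (all genes 2.72%).

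**Figure D2:**
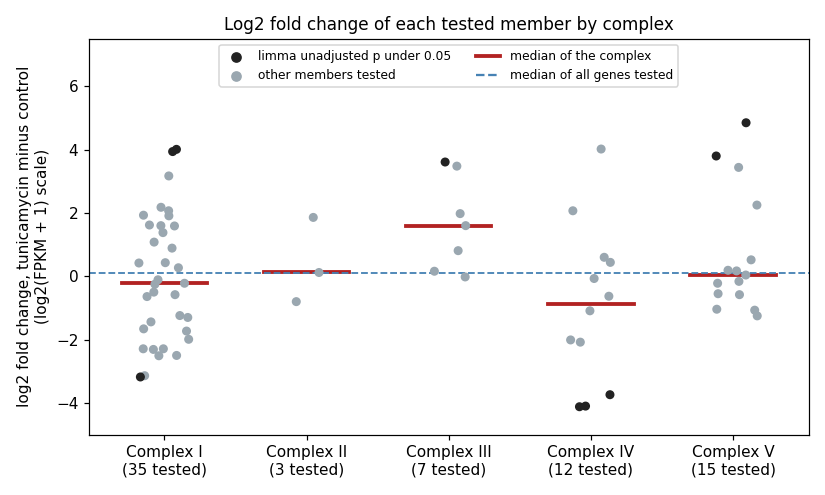
Log2 fold change (tunicamycin minus control, log2(FPKM + 1) scale) of each tested member, by complex. Dark points have a limma unadjusted p under 0.05, red bars are medians of each complex and the dashed line is the median of all genes tested, 0.10. Complexes I, IV and V have points on both sides of 0, and in complex III 6 of 7 points lie above 0.

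The 6 members above 0 in every library are described first, because none of their values is 0. In each sentence that follows, 3 values of a group are those of libraries 1, 2 and 3. Atp5b (chromosome 10, 128083273 to 128090391, build mm10), the catalytic beta subunit of the ATP synthase F1 head, stood at 910, 628 and 697 FPKM in tunicamycin libraries and at 798, 834 and 842 FPKM in control libraries. Its group means were 745 ± 147 and 824 ± 23.5 FPKM (SD, n = 3 each), and its log2 fold change was -0.16 ± 0.37 (SE; limma adjusted p = 0.935). Tunicamycin library 1 lay above every control library and the other tunicamycin libraries below, so that the groups overlapped. Atp5a1, the alpha subunit of the same head, had 284, 112 and 138 FPKM in tunicamycin libraries, against 130, 211 and 107 FPKM in control libraries, again with overlap.

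Among the complex IV genes, Cox6a1 (chromosome 5, 115345642 to 115348981), the widely expressed form of subunit 6a, had 473, 267 and 211 FPKM in tunicamycin libraries and 457, 257 and 842 FPKM in control libraries. Cox8a, the widely expressed form of subunit 8, had 200, 256 and 297 FPKM in tunicamycin libraries and 195, 140 and 644 FPKM in control libraries. In both genes control library 3 was the highest of the 6, and the other control libraries fell within or below the tunicamycin range. Cox4i1, the common form of subunit 4, had 215, 276 and 195 FPKM in tunicamycin libraries, against 419, 80.9 and 96.8 FPKM in control libraries. Control library 1 was the highest and the other control libraries the lowest. Exons of Cox4i1 overlap Emc8 on the opposite strand.

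Ndufb9 (chromosome 15, 58933756 to 58939488), an accessory subunit of the membrane arm, was the only complex I member above 0 in all libraries. It had 42.0, 153 and 86.5 FPKM in tunicamycin libraries and 208, 102 and 44.4 FPKM in control libraries, and the groups covered nearly the same range. Its exons overlap Gm49356 on the same strand. The limma log2 fold changes of these 6 members lay between -0.63 (Cox6a1) and 0.60 (Cox4i1), with adjusted p from 0.852 to 0.999.

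**Figure D3:**
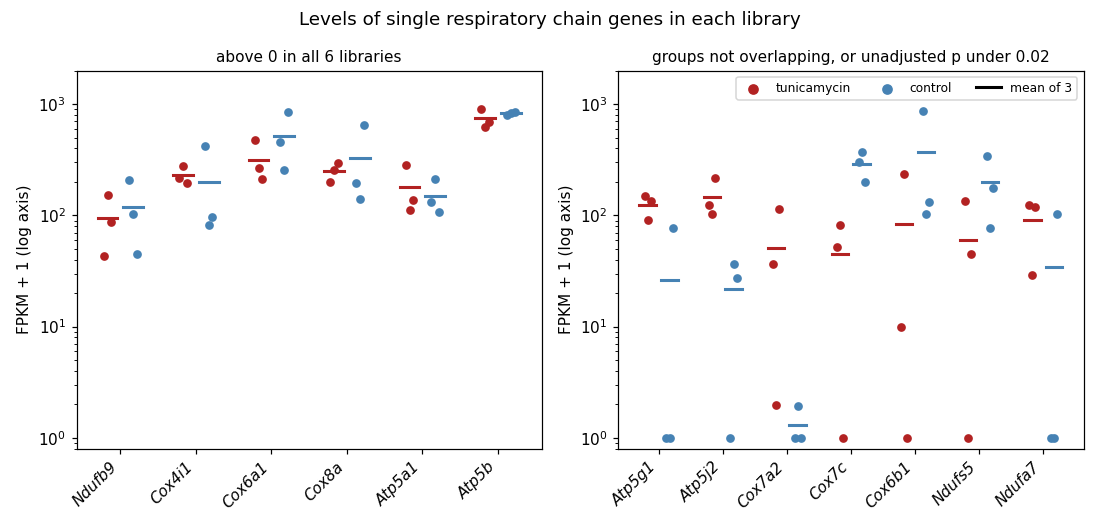
FPKM + 1 on a log axis in each library for the 6 members above 0 everywhere (left) and for the members with non-overlapping groups or the smallest p (right), tunicamycin in red and control in blue, bars at the mean of 3 libraries. On the left the groups overlap for all 6 genes; on the right several genes have libraries at the bottom of the axis, at 0 FPKM.

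Complex I carries electrons in through Ndufv1, which binds the flavin and NADH, and along iron-sulfur clusters in other core subunits. All 7 nuclear-encoded core subunits were above 0 in 1 to 5 libraries, with 5 positive and 2 negative log2 fold changes. Over the 35 tested members of complex I the median log2 fold change was -0.22, or -1.22 without control library 1. Ndufv1 had 29.5, 87.7 and 41.7 FPKM in tunicamycin libraries and 0, 30.9 and 0 FPKM in control libraries. Its groups overlapped through control library 2, and the log2 fold change was 3.94 ± 1.85 (SE; limma adjusted p = 0.852). Ndufs1, the largest core subunit, had 24.3, 48.6 and 13.9 FPKM in tunicamycin libraries, against 0, 20.2 and 0.206 FPKM in control libraries. Control library 1 was at 0 for 6 of these 7 core genes, Ndufv2 being above 0 there at 50.1 FPKM.

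Of the accessory subunits, which surround the core and stabilise it, 25 were tested, and their log2 fold changes were positive in 9 and negative in 16. Ndufs5 (chromosome 4, 123712710 to 123718202), whose promoter stretch is printed above, had 135, 0 and 43.7 FPKM in tunicamycin libraries and 341, 75.4 and 174 FPKM in control libraries. Only tunicamycin library 1 reached into the control range. Its log2 fold change was -3.18 ± 1.25 (SE; limma unadjusted p = 0.0108, adjusted p = 0.852), and it was -1.09 without tunicamycin library 2 and -0.40 by edgeR on whole reads. The coding sequence of Ndufs5 has 1 near-identical copy, BC002163 (99.4% identity). The reads behind 1 FPKM of Ndufs5 varied 2.33-fold between libraries. Ndufa7 had 123, 28.4 and 117 FPKM in tunicamycin libraries, against 0, 0 and 101 FPKM in control libraries. Control library 3 alone lay within the tunicamycin range. Ndufb8 had 54.8, 40.2 and 177 FPKM in tunicamycin libraries and 0, 184 and 235 FPKM in control libraries. Ndufa8 had 0, 51.6 and 0 FPKM in tunicamycin libraries and 1.67, 108 and 123 FPKM in control libraries. Ndufa4, named for complex I but since assigned to complex IV, was above 0 only in tunicamycin library 2, at 92.6 FPKM. Ndufa1 was above 0 only in control library 2, at 117 FPKM, and Ndufa11 and Ndufa13 likewise only there.

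Complex II, which is also an enzyme of the tricarboxylic acid cycle, had the lowest summed level. Sdha, its flavin-bearing catalytic subunit, had 48.8, 11.6 and 13.8 FPKM in tunicamycin libraries and 0, 13.1 and 12.8 FPKM in control libraries. The direction of Sdha depended on the measure: its log2 fold change was 1.86 ± 1.89 (SE) in FPKM, but -0.64 by edgeR on whole reads. Its reads were 45, 16 and 22 in tunicamycin libraries and 0, 66 and 68 in control libraries, so that the reads behind 1 FPKM differed 5.77-fold between libraries. The membrane anchors were sparse. Sdhd had 25.1, 0 and 0 FPKM in tunicamycin libraries and 0, 0 and 19.5 FPKM in control libraries, and Sdhc exceeded 1 FPKM only in control library 3, at 8.55 FPKM.

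Complex III had the highest median log2 fold change, 1.60, with 6 positive and 1 negative among 7 tested members. This rested on control library 1: without it the median was -0.20. Uqcrc2, a core protein, had 126, 18.5 and 23.1 FPKM in tunicamycin libraries and 42.1, 0 and 0 FPKM in control libraries. Uqcrfs1, the Rieske iron-sulfur protein, had 7.28, 2.32 and 12.0 FPKM in tunicamycin libraries, against 0, 0 and 65.7 FPKM in control libraries. For both genes 1 control library lay inside or above the tunicamycin range. The small subunit Uqcr10 had 55.6, 164 and 159 FPKM in tunicamycin libraries and 0, 95.0 and 251 FPKM in control libraries. Uqcrq, another small subunit, had 14.4, 170 and 51.5 FPKM in tunicamycin libraries, against 75.7, 0 and 0 FPKM in control libraries. Uqcrq too turned with the measure, from 3.61 ± 1.79 (SE; limma adjusted p = 0.852) in FPKM to -0.21 by edgeR on whole reads, its reads being 38, 62 and 20 in tunicamycin libraries and 180, 0 and 0 in control libraries.

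Complex IV held the member with the smallest p of all. Cox7c (chromosome 13, 86044816 to 86046904), a small structural subunit, had 51.4, 80.4 and 0 FPKM in tunicamycin libraries and 303, 372 and 197 FPKM in control libraries. Every control library lay above every tunicamycin library, with means of 43.9 ± 40.7 and 291 ± 88.4 FPKM (SD, n = 3 each). The log2 fold change was -4.12 ± 1.16 (SE), with a limma unadjusted p of 0.000381 and an adjusted p of 0.245. Without tunicamycin library 3, where it was at 0, the log2 fold change was -2.11, and edgeR on whole reads gave -2.48 (adjusted p = 0.642). Reads gave the same order, 38, 53 and 0 in tunicamycin libraries against 162, 250 and 135 in control libraries. The coding sequence of Cox7c has 3 near-identical copies elsewhere in the genome, at up to 100% identity, and how reads were shared among them is not stated.

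Cox6b1, the widely expressed form of subunit 6b, which lies at the interface of the complex IV dimer, had 8.91, 237 and 0 FPKM in tunicamycin libraries and 872, 102 and 132 FPKM in control libraries. Tunicamycin library 2 lay between the control values, so the groups overlapped (log2 fold change -4.10 ± 1.25, SE; limma adjusted p = 0.428). It was -2.24 without tunicamycin library 3 and -1.88 by edgeR. Cox7b had 116, 0 and 0 FPKM in tunicamycin libraries, against 176, 34.8 and 43.5 FPKM in control libraries, and has 2 near-identical copies. Cox5b had 7.60, 0 and 86.3 FPKM in tunicamycin libraries and 217, 224 and 0 FPKM in control libraries. Cox7a2, the widely expressed form of subunit 7a, was higher in tunicamycin libraries, with 35.6, 0.955 and 114 FPKM in tunicamycin libraries and 0, 0.939 and 0 FPKM in control libraries. Its groups are separated only by 0.955 against 0.939 FPKM, each from 1 read. Over the 12 tested members of the complex the median log2 fold change was -0.86, with 4 positive and 8 negative.

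In complex V the c subunit forms the rotating membrane ring and is encoded by 3 paralogues, Atp5g1, Atp5g2 and Atp5g3, which yield the same mature protein. Atp5g1 (chromosome 11, 96068852 to 96075670) had 149, 90.2 and 133 FPKM in tunicamycin libraries and 0, 0 and 75.5 FPKM in control libraries. All tunicamycin libraries lay above all control libraries (log2 fold change 4.85 ± 1.63, SE; limma unadjusted p = 0.00289, adjusted p = 0.716), and edgeR on whole reads gave 2.75. Atp5g2 had 74.2, 0 and 1.96 FPKM in tunicamycin libraries and 0, 154 and 0 FPKM in control libraries. Atp5g3 had 99.0, 5.13 and 0.979 FPKM in tunicamycin libraries, against 0, 74.7 and 146 FPKM in control libraries. The 3 paralogues thus did not share an order of libraries, and their sum was 322, 95.3 and 136 FPKM in tunicamycin libraries and 0, 229 and 221 FPKM in control libraries, with overlap. Near-identical copies exist for Atp5g1 (1 copy, 99.8% identity) and Atp5g2 (2 copies, up to 100%).

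Atp5j2 (chromosome 5, 145183698 to 145192062), the f subunit of the membrane part, had 122, 101 and 216 FPKM in tunicamycin libraries and 0, 35.6 and 26.2 FPKM in control libraries. The lowest tunicamycin library was above the highest control library (log2 fold change 3.80 ± 1.42, SE; limma unadjusted p = 0.00730, adjusted p = 0.852). Without control library 1, where it was at 0, the log2 fold change was 2.14. No near-identical copy of its coding sequence was found. Atp5o, a peripheral stalk subunit that confers oligomycin sensitivity, had 110, 76.6 and 0 FPKM in tunicamycin libraries and 0, 5.75 and 0 FPKM in control libraries. Atp5h, of the same stalk, had 44.8, 0 and 156 FPKM in tunicamycin libraries, against 0, 48.0 and 458 FPKM in control libraries. A copy of it, Gm10250, was itself above 0, with 87.6, 0 and 112 FPKM in tunicamycin libraries and 0, 0 and 18.8 FPKM in control libraries. Stalk genes as a group had 3 positive and 1 negative log2 fold changes, and the 4 tested genes of the F1 head 1 positive and 3 negative.

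Summed over each complex, FPKM described the chain as a whole, without a test. All 93 members together came to 4435, 3996 and 3937 FPKM in tunicamycin libraries and 5198, 4925 and 5704 FPKM in control libraries. Every control library was higher, and the ratio of means was 0.781. As a share of all FPKM in a library the members held 1.87% to 2.12% in tunicamycin libraries and 2.23% to 2.35% in control libraries. In CPM of whole reads the difference was smaller, 7530, 7434 and 7988 in tunicamycin libraries against 8351, 8882 and 8271 in control libraries, again without overlap. In control library 1, complex IV held 2879 of the 5198 FPKM and 3493 of the 8351 CPM. The place of control library 1 above the tunicamycin libraries rested on complex IV in both measures. The summed FPKM of the 12 hepatocyte markers was also lower, at 393, 364 and 316 in tunicamycin libraries and 611, 573 and 839 in control libraries. Its 5 tested genes were not of one sign, with 2 positive and 3 negative log2 fold changes. Apoe had the smallest p of them, with 1.72, 118 and 0 FPKM in tunicamycin libraries and 99.7, 127 and 240 FPKM in control libraries. Its groups overlapped (log2 fold change -4.41, limma adjusted p = 0.716). Alb was lower without overlap, whereas Apob, the core protein of secreted lipoproteins, had 5.34, 5.05 and 13.4 FPKM in tunicamycin libraries and 0.0425, 1.84 and 0.232 FPKM in control libraries. The 8 cholangiocyte and epithelial markers summed to 452, 380 and 368 FPKM in tunicamycin libraries, against 569, 442 and 534 FPKM in control libraries, with overlap and a ratio of 0.778. The part of either marker list in the members' result was not tested.

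By complex, the groups did not overlap in complex IV alone. Its sum was 1235, 1224 and 1004 FPKM in tunicamycin libraries and 2879, 1346 and 1956 FPKM in control libraries, a ratio of 0.560, or 0.699 without control library 1. In CPM of whole reads the groups overlapped, with 1650, 1699 and 1411 in tunicamycin libraries and 3493, 1648 and 2222 in control libraries. Complex I summed to 942, 944 and 1293 FPKM in tunicamycin libraries and 1222, 1524 and 1646 FPKM in control libraries. Complex V summed to 1851, 1431 and 1374 FPKM in tunicamycin libraries, against 979, 1833 and 1743 FPKM in control libraries. Atp5b alone made up 51.1% of the complex V sum. The ratio of means was 1.02, and it was 0.868 to 1.14 when a library was left out, lowest without control library 1. Complex III came to 333, 385 and 252 FPKM in tunicamycin libraries and 118, 208 and 317 FPKM in control libraries. For complex II the sums were 73.9, 11.6 and 14.7 FPKM in tunicamycin libraries, against 0, 13.1 and 40.9 FPKM in control libraries.

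**Figure D4:**
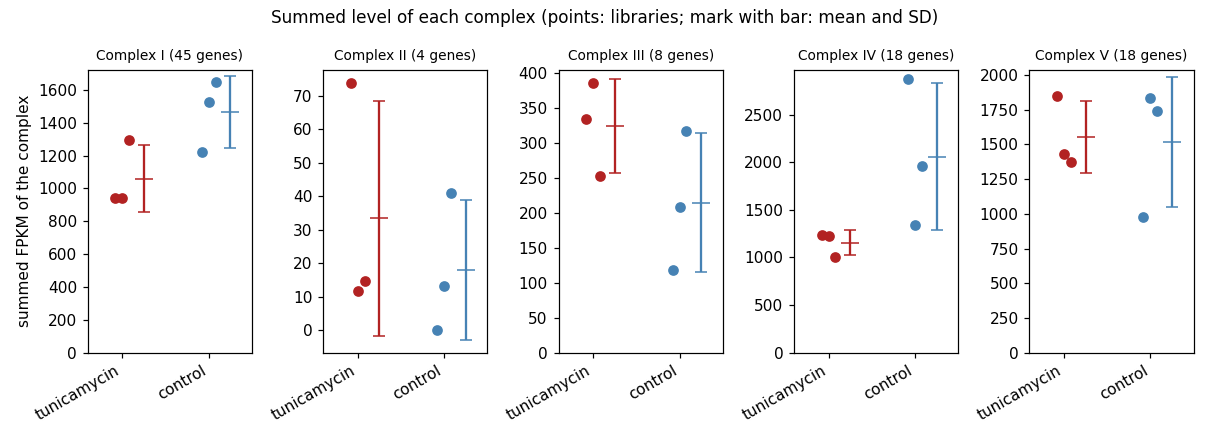
Summed FPKM of the members of each complex (vertical axis, a scale for each panel) in each library, tunicamycin left and control right, with mean and SD beside the points. In complex IV the tunicamycin libraries (1004 to 1235) lie below the control libraries (1346 to 2879), and in the other complexes the groups overlap.

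The related lists gave few calls. Of the 13 mitochondrially encoded subunits, all had an FPKM above 0 in all 6 libraries, and 12 were tested, with 3 positive and 9 negative log2 fold changes and a median of -0.27. 1 passed the threshold: mt-Cytb, the cytochrome b of complex III, had 2099, 1747 and 1222 FPKM in tunicamycin libraries and 0.00147 (0 whole reads), 2574 and 3540 FPKM in control libraries (log2 fold change 2.98 ± 0.43, SE; limma adjusted p = 2.94e-08). The other control libraries both lay above every tunicamycin library, so the positive sign rested on control library 1. On the same genes, no gene of the table passed without that library, nor without any other single library. Assembly factors, which include the 7 Ndufaf members, had 10 positive and 14 negative among 24 tested (median -0.29). Genes of the tricarboxylic acid cycle had 8 and 10 among 18 (median -0.59), and regulators of mitochondrial biogenesis 4 and 7 among 11 (median -1.06). Other nuclear chain genes outside the name rule had 5 and 9 among 14 (median -1.91). Among these, Cycs, which encodes cytochrome c, had 0 FPKM in all 3 tunicamycin libraries and 541, 35.8 and 0 FPKM in control libraries (limma adjusted p = 0.852). None of these nuclear lists had a call.

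How far FPKM and reads agree, and whether copies could take reads, bears on several of the genes above. Of 56 members with at least 10 reads in 2 or more libraries, the reads behind 1 FPKM varied over 1.5-fold between libraries in 20 and over 2-fold in 11, the widest being Ndufab1 (12.2-fold), Uqcrq (7.25-fold) and Sdha. A near-identical copy (at least 95% identity over at least 80% of the coding sequence) was found for 20 of 92 members. Of the 19 such members at 0 in all 6 libraries 1 had a copy (Uqcrb), of the 67 above 0 in 1 to 5 libraries 19 had one, and of the 6 above 0 in all libraries none had. Exons of 29 members overlap a gene on the opposite strand.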

How the data were processed

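Ribosome-depleted total RNA was sequenced in stranded, paired-end libraries, per the labels' protocols. Per the submitters' processing notes, cutadapt 1.9.3, HISAT2 2.0.4 on build mm10 and Cuffdiff were used. The Cufflinks version and strand setting are not stated in these notes. FPKM, deposited by the authors, came with an estimated count per gene and library. The deposited counts were whole multiples of a step per library (97.2% to 98.0% of values within 0.01); dividing by it and rounding gave whole reads.

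limma 3.58.1 (R 4.3.3, variance trend, group as the only term, 2-sided) was run on log2(FPKM + 1) for 7696 genes (mean FPKM at least 1). This scale understates changes of low genes. Where 0s stood beside high values, the size of the change depended on the pseudocount. For Atp5g1 it was 7.06 with pseudocount 0.1, 4.85 with 1 and 2.68 with 10. Benjamini-Hochberg adjustment covered all genes tested, with a threshold of 0.05. edgeR 4.0.16 (quasi-likelihood) and DESeq2 1.42.0 (poscounts) were run on whole reads. Of the steps, only the limma, edgeR and DESeq2 fits were also run on simulated data. The simulated reads were Poisson draws multiplied by each library's most frequent read number. The outcome is not given here, so it is no check on the results above. The recovery of whole reads, the detection counts, the sums and the motif and copy searches were not run on simulated data. Named genes are members above 0 in all 6 libraries, those with non-overlapping groups, the 3 smallest p per complex, tissue-restricted isoforms and c subunit paralogues; others were chosen after their values were seen, as were the motif letters, printed promoters and copy search (blastn 2.17.0, GENCODE M21). The members and lists were chosen with earlier results of these data known. The table holds 1 line that was not analysed here. Values of 1 member are not reported here by name, though the counts and sums include it.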

Additional observations from a re-analysis of the deposited data

How the results depend on the processing

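No respiratory chain gene passed the threshold under any setting run: pseudocounts 0.1 and 10, no filter, a mean FPKM of at least 5, median-of-ratios and quantile scaling, no variance trend, the replicate block, edgeR, DESeq2 and leaving out each library. The count over all genes, 5, became 2 with pseudocount 10, 0 without a filter, 2 with a mean FPKM of at least 5, 0 without the variance trend, 3 with edgeR and 44 with DESeq2. Leaving out each library in turn on the same genes gave 0 calls over all genes each time.

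Leave-one-out was first run with the filter recomputed over the 5 remaining libraries, and the fit on the 6-library gene set was made the main version only after those counts had been seen. With the recomputed filter, the calls over all genes were 0 without control library 1, 2 without control library 2, 7 without control library 3 and 0 without each tunicamycin library, and no member was called.

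Same-numbered libraries did not deviate together (correlations -0.009, -0.014 and 0.002 across genes). These correlations gave no sign of pairing by number. With 3 libraries per group and many values at 0, they cannot exclude it. With the replicate number as a block, 0 genes and 0 members were called.

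The median log2 fold change of complex III was 2.81 with pseudocount 0.1, 0.61 with pseudocount 10, 0.62 with quantile scaling, 0.67 with edgeR, 0.64 with DESeq2, and -0.20 to 2.56 when a library was left out. That of complex I was -1.22 to 0.50 when a library was left out, lowest without control library 1. The summed-level ratio of complex II was 0.729 to 5.10 when a library was left out, an alternative chosen after seeing the data. Cox8a was 0.05 with median-of-ratios and 0.15 with quantile scaling. On whole reads, edgeR and DESeq2 gave 0.16 and 0.07 for Atp5b, -0.64 and -0.56 for Sdha, -0.21 and -0.77 for Uqcrq, and -0.82 and -0.85 for Atp5g2, which was -0.23 with pseudocount 10. Leaving out a library also turned the sign of Ndufb9 (-0.81 to 0.29), Cox8a (-0.51 to 0.59), Atp5a1 (-0.20 to 0.47), Sdhc (-1.34 to 0.29), Sdhd (-1.45 to 1.57), Uqcr10 (-0.44 to 3.55), Atp5g2 (-1.64 to 2.60) and Atp5g3 (-3.31 to 0.29). The causes were not tested.

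Requiring at least 10 whole reads, also chosen after seeing the data, left 6 members detected in all 6 libraries and 21 in none. Of 93 members, 87 were at 0 in at least 1 library, and what gave these values, depth and failed estimates included, was not tested. Without 1 library the log2 fold change was -5.28 to -2.11 for Cox7c, -6.18 to -2.24 for Cox6b1, 2.14 to 4.74 for Atp5j2 and -4.63 to -1.09 for Ndufs5.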
